A study of Mus musculus with 18 samples.

Results

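The sites described here are the CHD4 peaks of wild type (WT) granulo-monocytic progenitors (GMPs) that had a fold enrichment below 15, no overlapping CHD4 peak in Gfi1-/- GMPs, and no overlapping H3K4me2 peak in GMPs, in neutrophil precursors (preNeu) or in mature neutrophils (matNeu). Of 35790 CHD4 peaks in WT GMPs, 9923 (27.7%) met all of these conditions, and they are called unmarked sites below. This list of peaks is much longer than the set of CHD4 peaks that the paper counts in WT GMPs. The sites are therefore not those of the paper's own set. They made up 36.2% of the 27413 weaker peaks that had no counterpart in Gfi1-/- GMPs. Fold enrichment is the linear ratio of the signal at a peak to its local background as the authors' peak caller gave it, and an overlap of 1 bp was counted. An absent peak is the absence of a call in a list and not a measured level of 0.

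CHD4 is the ATPase of the NuRD complex, which slides nucleosomes and, through its HDAC subunits, removes acetyl groups from histones. GFI1 is a zinc finger repressor that neutrophil formation depends on, and it recruits LSD1 (KDM1A), an enzyme that takes methyl groups off H3K4. H3K4me2 marks active and poised promoters and enhancers in many cell types. GMPs give rise to monocytes and neutrophils, and along the neutrophil branch preNeu cells still divide while matNeu cells no longer do.

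All samples came from bone marrow cells of adult C57BL/6 mice of 6 to 12 weeks. CHD4 ChIP-seq was from 1 WT and 1 Gfi1-/- library of sorted GMPs, H3K4me2 ChIP-seq from 1 WT library each of GMP, preNeu and matNeu cells, and ATAC-seq, which maps open chromatin, from WT preNeu and matNeu cells with 1 library each. RNA-seq came from the same 3 WT cell types, with 3 libraries for each. Every statement about peaks therefore rests on single libraries with no replicate check, and the intervals given for shares of sites are 95% intervals that cover counting error only. Cell types are those of the sample titles, since a second label of cell type disagreed with the title for 13 of 18 samples. The RNA-seq libraries bore out the titles: the summed level of 5 GMP markers (Cd34, Kit, Mpo, Elane, Ctsg) was 42519 to 44120 TPM in the 3 GMP libraries and 6.18 to 25.8 TPM in the 3 matNeu libraries, while 5 preNeu markers summed to 101993 to 129739 TPM in preNeu cells and 5 matNeu markers to 15680 to 18274 TPM in matNeu cells. Markers of other cells were also detected. In GMPs 4 monocyte markers (Csf1r, Ccr2, Ly6c2, Cx3cr1) summed to 2931 to 3601 TPM and 4 eosinophil markers to 850 to 1096 TPM, 4 B-cell markers lay between 26.0 and 132 TPM in all 9 libraries, and 4 T-cell and 4 erythroid markers stayed at or below 15.1 and 11.6 TPM. Their part in the results below was not tested.

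The values that chose the unmarked sites are given as a description only. Their fold enrichment ran from 1.65 to the limit, with quartiles of 5.27, 6.45 and 8.38, and their median −log10 q was 10.7, with 9325 of them (94.0%) at 5 or more. They were narrow, with a median width of 269 bp (173 to 1915 bp), and together covered 2.95 Mb of the 15.1 Mb under all CHD4 peaks. Just inside the limit lay sites near Trib1 (fold enrichment 14.98) and near Myom1 and Cd9 (both 14.997), and just outside it sites near Adtrp (15.004), Arap2 (15.06) and Rreb1 (15.16). A further 492 lost sites without H3K4me2 were at or above the limit. Of the other CHD4 sites, 8000 were weaker, lost and marked by H3K4me2 only at the preNeu or matNeu stage (later-marked sites), 9490 were weaker, lost and marked already in GMPs (GMP-marked sites), 1745 were lost with a fold enrichment of at least 15 (stronger lost sites), and 6632 overlapped a peak of Gfi1-/- GMPs (kept sites). The list of Gfi1-/- GMPs held 7316 CHD4 peaks, so that 29158 of the WT peaks counted as lost, and loss of binding cannot be told apart here from weaker recovery in that library. With its smaller set of peaks, the paper reports that sites with CHD4 and no GFI1 largely kept CHD4 in Gfi1-/- GMPs. Positions below are for the 9909 unmarked sites on assembled chromosomes of GRCm38.

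The sequences below are windows of 200 bp around the CHD4 summit, read from GRCm38 on the plus strand. Capitals mark 3 cores searched on both strands: GGAANNGAA, part of the composite element at which ETS factors such as SPI1 bind together with IRF4 or IRF8, GAGGAAGT, a core of the SPI1 motif, and TTGCNNAA, a core of the CEBP motif. They can overlap, as GGAA is shared by the composite and the SPI1 core. The 3 unmarked sites of highest fold enrichment that overlapped an ATAC peak, outside exons, are shown first because such sites were rare.
Nearest gene Cacybp, in an intron of Rabgap1l, chr1:160246034-160246233: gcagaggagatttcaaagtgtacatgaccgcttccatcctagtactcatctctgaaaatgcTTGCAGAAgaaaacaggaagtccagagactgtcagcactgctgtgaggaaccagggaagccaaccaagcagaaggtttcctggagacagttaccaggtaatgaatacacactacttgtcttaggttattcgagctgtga
Nearest gene Rnf169, in an intron of Rnf169, chr7:99960434-99960633: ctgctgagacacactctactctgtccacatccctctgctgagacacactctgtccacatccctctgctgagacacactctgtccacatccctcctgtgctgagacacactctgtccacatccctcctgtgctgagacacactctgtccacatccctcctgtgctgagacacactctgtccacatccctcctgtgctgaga
Nearest gene Lhx8, in an intron of Slc44a5, chr3:154183045-154183244: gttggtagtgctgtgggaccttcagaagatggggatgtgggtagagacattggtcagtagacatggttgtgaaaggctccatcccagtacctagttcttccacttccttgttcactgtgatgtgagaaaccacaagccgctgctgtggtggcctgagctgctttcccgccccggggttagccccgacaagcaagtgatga
These windows held 1 CEBP core and neither of the other cores. The Rnf169 window is a tandem array, as a shift of 32 bp aligned it with itself at 74.4% identity, although the genome's repeat masking covered 0% of it. Next come, by the same rule, the 3 strongest unmarked sites that did not overlap an ATAC peak, each in an intron of its nearest gene. A site near Trib1, not printed, equalled the Ptcd2 site in fold enrichment (14.98).
Nearest gene Myom1, chr17:71081973-71082172: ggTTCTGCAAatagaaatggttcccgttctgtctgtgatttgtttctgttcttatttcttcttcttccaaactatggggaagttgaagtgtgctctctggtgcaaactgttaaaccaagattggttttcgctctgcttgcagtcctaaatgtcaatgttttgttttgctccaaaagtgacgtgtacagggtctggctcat
Nearest gene Cd9, chr6:125461359-125461558: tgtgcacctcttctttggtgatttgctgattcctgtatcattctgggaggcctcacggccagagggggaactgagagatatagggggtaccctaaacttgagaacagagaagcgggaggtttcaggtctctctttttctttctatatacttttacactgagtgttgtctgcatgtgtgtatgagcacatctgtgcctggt
Nearest gene Ptcd2, chr13:99334119-99334318: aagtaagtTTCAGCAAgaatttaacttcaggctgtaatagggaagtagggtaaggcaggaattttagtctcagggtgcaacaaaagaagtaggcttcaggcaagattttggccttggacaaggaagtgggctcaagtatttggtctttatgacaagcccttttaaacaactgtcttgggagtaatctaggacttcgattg
A CEBP core lay near the edge of the Myom1 and Ptcd2 windows, and the Cd9 window held none of the 3 cores. The last 3 windows belong to the strongest unmarked sites that held the composite core with T before its GAA (GGAANTGAA), the pattern whose share is reported below. They were chosen for that core after the values had been seen.
Nearest gene Inhba, intergenic, chr13:15978686-15978885: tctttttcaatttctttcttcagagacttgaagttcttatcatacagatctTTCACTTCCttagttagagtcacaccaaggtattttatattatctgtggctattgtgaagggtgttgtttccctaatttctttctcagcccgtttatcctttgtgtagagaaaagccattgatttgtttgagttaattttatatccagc
Nearest gene Hivep2, intergenic, chr10:13941560-13941759: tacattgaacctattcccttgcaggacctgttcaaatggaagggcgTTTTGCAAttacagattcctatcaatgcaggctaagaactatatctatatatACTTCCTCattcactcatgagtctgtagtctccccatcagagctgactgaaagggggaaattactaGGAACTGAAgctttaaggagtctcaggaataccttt
Nearest gene Cybb, in an intron of Cybb, chrX:9474494-9474693: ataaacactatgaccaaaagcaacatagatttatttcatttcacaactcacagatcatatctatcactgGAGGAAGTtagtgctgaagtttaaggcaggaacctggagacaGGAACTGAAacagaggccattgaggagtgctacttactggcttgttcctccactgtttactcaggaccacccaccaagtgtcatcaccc
Within these windows the composite core lay 64 bp after the summit at Hivep2 and 11 bp after it at Cybb, and it lay 49 bp before the summit at Inhba, where it is read on the minus strand. The Hivep2 and Cybb windows held an SPI1 core as well. The Inhba window was repeat-masked over 100% of its length. The nearest H3K4me2 peak of any stage was 1.65 kb from the Inhba site, 21.4 kb from the Hivep2 site and 0.316 kb from the Cybb site.

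Unmarked sites were a distal set. Intergenic sequence held 49.3% of them (4888 sites) and introns of protein-coding genes 45.9% (4550 sites), while 3′ UTRs held 1.23% and coding exons 1.13%. Promoters, taken as 2 kb upstream to 500 bp downstream of a transcription start site (TSS), held the summits of 234 sites, or 2.36% (2.08 to 2.68%). The promoter share was 3.93% for later-marked, 17.7% for GMP-marked, 6.77% for stronger lost and 6.94% for kept sites. The difference from the later-marked sites, which are the most like them, was −1.57 percentage points (−2.10 to −1.05). The choice of sites used H3K4me2, which is frequent at promoters, so their promoter share is not independent of that choice. In 8 bins of fold enrichment the promoter share of unmarked sites was 1.72 to 2.93%, against 8.12 to 14.8% for later-marked and GMP-marked sites of the same bin in 1 group, and the other classes were not compared by bin. Unmarked sites took a smaller part of the weaker lost sites where enrichment was higher, with 38.5% at a fold enrichment of 5 to 6 and 29.7% at 12 to 15.

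**Figure D1:**
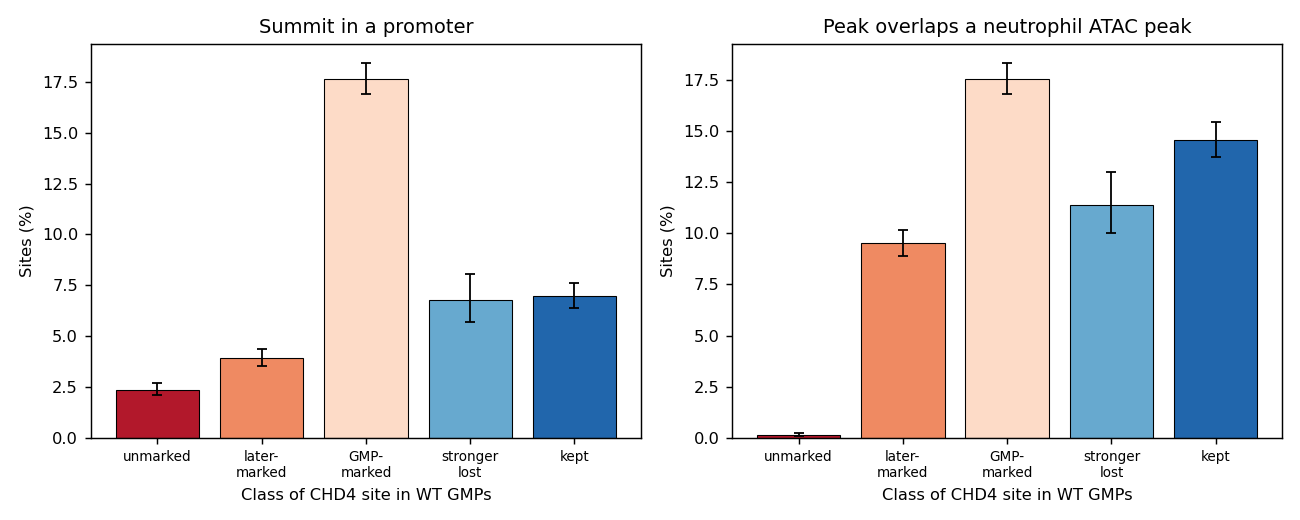
Share of CHD4 sites in promoters (left) and overlapping an ATAC peak of neutrophil stages (right), in percent, for the 5 classes of sites. Bars are shares over all sites of a class and error bars 95% Wilson intervals. Unmarked sites have the lowest value in both panels, at 2.36% and 0.131%.

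The median distance from an unmarked site to the nearest protein-coding TSS was 37.8 kb (quartiles 14.1 and 93.5 kb), compared with 27.4 kb for later-marked, 12.7 kb for GMP-marked, 27.9 kb for stronger lost and 27.0 kb for kept sites. Within 3 kb of a TSS lay 5.52% of unmarked sites and 30.1% of GMP-marked sites, and within 100 kb lay 76.6% of unmarked sites. They were also more often solitary, since 31.8% had no other CHD4 site within 10 kb, against 24.7% of later-marked, 21.3% of GMP-marked and 11.8% of kept sites. Even so, most were not far from marked chromatin. The nearest H3K4me2 peak of any stage was a median of 5.29 kb away, 19.9% of unmarked sites had one within 1 kb and 64.4% within 10 kb, and 9.20% had none within 50 kb. "Without H3K4me2" therefore describes the site itself and often not its neighbourhood.

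**Figure D2:**
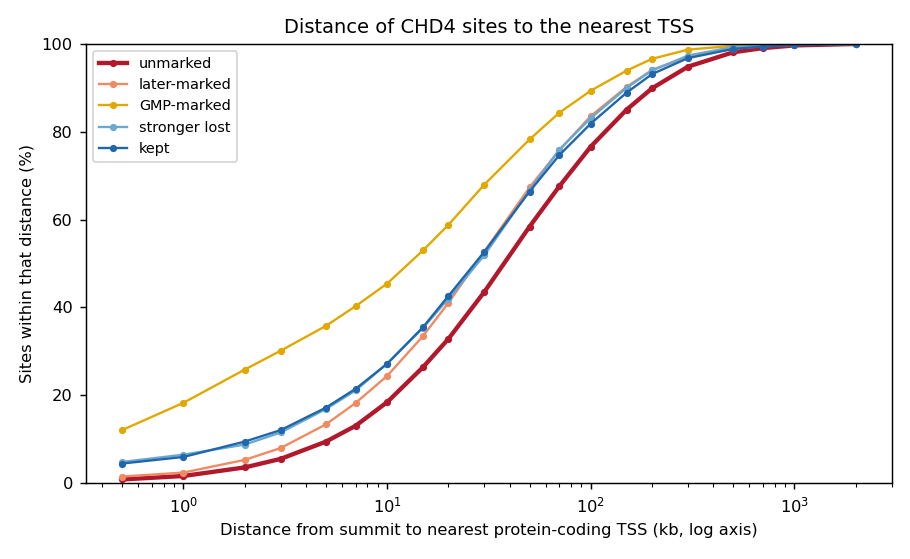
Cumulative share of sites, in percent, against the distance to the nearest protein-coding TSS in kb (log axis), 1 line per class of CHD4 sites. The line of the unmarked sites lies to the right of the others, with its median at 37.8 kb.

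Unmarked sites were spread over all chromosomes, and their share of the weaker lost sites was higher on the X chromosome than on any autosome. On X, 366 of 707 weaker lost sites were unmarked (51.8%, 48.1 to 55.4%), whereas the share on autosomes ran from 29.7% on chromosome 11 to 39.9% on chromosome 6. The Y chromosome had 7 of 10, with an interval of 39.7 to 89.2%. X also carried few H3K4me2 peaks, with 3.55 per Mb in GMPs, 7.01 in preNeu and 5.41 in matNeu cells. The part of that low density in the result was not tested.

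Open chromatin, which the choice of sites did not use directly, was nearly lacking at the unmarked sites. Most ATAC peaks overlapped an H3K4me2 peak (75.1%), and the choice left out H3K4me2. The ATAC share is therefore not independent of that choice. Only 13 of 9909 overlapped an ATAC peak of the neutrophil stages (0.131%, 0.0767 to 0.224%), against 9.52% of later-marked, 17.6% of GMP-marked, 11.4% of stronger lost and 14.6% of kept sites. The difference from later-marked sites was −9.39 percentage points (−10.1 to −8.76). The ATAC peak lists given for the preNeu and matNeu stages held the same 16307 peaks line by line and were merged into 1 list, and accessibility in GMPs, where CHD4 was mapped, was not analysed here. The gap was present at every distance from a TSS: 0 of 547 unmarked sites within 3 kb overlapped an ATAC peak, which allows a share of up to 0.548%, against 14.7% of later-marked sites. It was 0.172% against 9.42% at 3 to 50 kb, and 0.0970% against 8.43% farther out. In 3 bins of fold enrichment it was 0.194, 0.109 and 0.139% for unmarked and 7.59, 9.45 and 11.9% for later-marked sites. Windows shifted by 10 kb from the unmarked sites overlapped ATAC peaks more often (0.717%) than the sites themselves did. The shifted windows were not required to lack H3K4me2, so the choice of sites alone favours this order and nothing is concluded from it.

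This low share goes with the way ATAC peaks and H3K4me2 peaks coincide. Of the ATAC peaks, 75.1% overlapped an H3K4me2 peak of some stage, and of the 4058 that did not, 44 overlapped any CHD4 site of WT GMPs (1.08%). The 13 unmarked sites with an ATAC peak had as nearest genes Cacybp, Rnf169, Lhx8, 4931417E11Rik, Alg14, Marco, Zfp366, Atp1b1, Wdr76, Gad2, Acsf3, Sfi1 and Rassf8. Their ATAC peaks were weak, and only those at Wdr76 (fold enrichment 4.36, −log10 q 5.98) and Gad2 (8.12 and 27.4) reached a −log10 q of 5.

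The sequence at unmarked sites was richer in the ETS-IRF composite core than that of the other weaker sites. The composite core GGAANNGAA was found in 19.4% of unmarked windows and in 6.997% of windows of the same length 1 kb downstream. It was in 12.2% of later-marked and 12.5% of GMP-marked windows, in 18.1% of stronger lost and 17.2% of kept windows, and in 15.5% of all CHD4 windows. The form with T before GAA was in 10.7% of unmarked windows against 2.45% downstream, and in 5.71% of both later-marked and GMP-marked windows. The difference between unmarked and later-marked windows was 4.97 percentage points (4.17 to 5.76) for this form. Between the unmarked and the stronger lost windows it was 0.91 points (−0.68 to 2.36), so these were not told apart. The 2 bases between GGAA and GAA were most often GT in unmarked windows (438 of 2087 matches, 21.0%), followed by CT (14.8%) and AT (12.7%). GT was also the most frequent pair in later-marked (17.6%) and GMP-marked (16.9%) windows. In stronger lost windows the most frequent pair was CT (17.5%). In kept windows it was TG (22.1%, against 2.11% in unmarked windows), and GT made up 14.4% of the matches. Around the summit the unmarked sites had a broad maximum, with 15.6 matches per 1000 sites in the 10 bp just before it, while kept sites had a sharper one of 24.6. These profiles count matches with any pair, and so include the TG form of the kept sites.

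**Figure D3:**
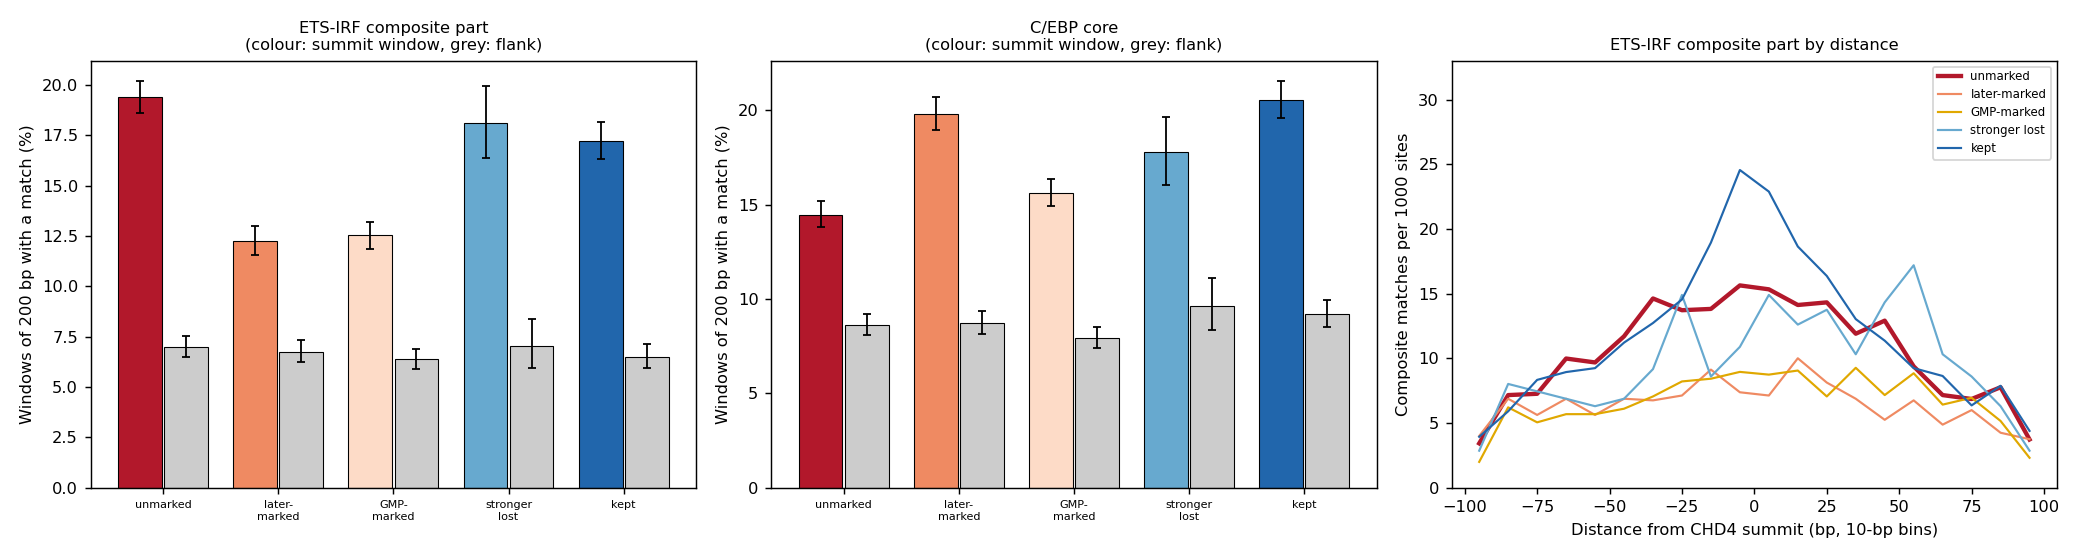
Left and middle, share of windows of 200 bp with the ETS-IRF composite core and with the CEBP core, in percent, at the CHD4 summits (coloured bars) and 1 kb downstream (grey bars) for 5 classes of CHD4 sites, with 95% Wilson intervals; right, composite matches per 1000 sites against the distance from the summit in bp. For the ETS-IRF composite core the unmarked sites are at 19.4% at the summit and 6.997% downstream, while for the CEBP core they are at 14.5%, the lowest of the 5 classes.

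The SPI1 core GAGGAAGT was in 11.9% of unmarked and 12.9% of later-marked windows (1.54% downstream of unmarked sites), and the general IRF core AANNGAAA, which overlaps the composite, was in 39.1% and 30.4%. Its difference of 8.64 percentage points (7.24 to 10.03) was larger in points than that of the composite core, at 7.15 (6.08 to 8.20). The IRF core was in 37.7% of stronger lost and 39.3% of kept windows. From these the unmarked windows differed by 1.36 points (−1.13 to 3.80) and −0.23 points (−1.75 to 1.29), so they were not told apart. The GC box GGGCGG was in 1.92% of unmarked and 10.4% of GMP-marked windows. The part of the interferon response element GAAANNGAA, with a different spacing, differed little (12.2% and 11.03%). The CEBP core TTGCNNAA, bound by the CEBP factors of the granulocyte lineage, was less frequent in unmarked windows, at 14.5% against 19.8% of later-marked, 17.8% of stronger lost and 20.6% of kept windows, and against 15.6% of GMP-marked windows the difference was −1.16 points (−2.17 to −0.16). The core of the GFI1 motif, AAATCA, was in 13.6% of unmarked windows and in 16.6% downstream of them, and it was below its flank in each of the 5 classes. It was more frequent in unmarked than in later-marked windows by 2.02 points (1.05 to 2.99). Against GMP-marked windows the difference was 3.14 points (2.22 to 4.05), and against stronger lost windows 2.93 (1.26 to 4.46). The difference from kept windows was 0.47 points (−0.60 to 1.52), so these were not told apart. The flanks differed in the same direction, at 16.6% for unmarked sites against 14.994% for later-marked, 14.3% for GMP-marked and 14.9% for stronger lost sites. The GFI1 core was not compared within bins of GC content, and the part of base composition was not tested. The core of the GATA motif, AGATAA, was likewise below its flank (9.31% and 12.4%). The core of the RUNX motif, TGTGGT, was above it (22.3% and 14.9%). A match of such letters is a description of the sequence and not evidence of a bound factor.

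The difference in the composite core remained when unmarked sites were set beside marked weaker lost sites of like strength, base composition or position. It was 4.69, 6.59, 10.1 and 6.31 percentage points in 4 bins of rising fold enrichment, 6.07 to 7.38 points in 4 bins of GC content, and 6.69 to 7.04 points in 3 bins of distance to a TSS. Among windows at least 50% repeat-masked it was 10.1 points (6.36 to 13.7). The lower share of the CEBP core was −3.18 to −6.25 points over the GC bins, but −1.06 points (−2.98 to 0.92) in the lowest bin of fold enrichment and 0.00 points (−3.30 to 3.18) in the windows at least 50% repeat-masked. Unmarked windows were lower in GC than later-marked and GMP-marked windows (medians of 45, 46.5 and 49%). No CpG was present in 22.4% of them, compared with 16.1% and 7.75%, and 10.7% were at least 50% repeat-masked, compared with 5.84% and 2.95%.

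The 9909 unmarked sites had 4105 different protein-coding genes as their nearest gene by TSS, of which 2079 had a single unmarked site and 508 had 5 or more. For most sites this gene also had CHD4 sites of another class (8362 sites, 84.4%). That left 1095 genes with unmarked sites alone, 3010 with unmarked and other sites, 3215 with other sites alone and 14618 with none. The nearest gene is a matter of position, and no link between a site and a gene's expression was measured.

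Genes with unmarked sites alone were expressed at the level of genes without any CHD4 site. Their median log2(TPM + 1) in GMPs was 0.43 ± 0.03 (SD, n = 3), against 0.46 ± 0.01 for genes without a site, 2.90 ± 0.05 for genes with both kinds and 3.76 ± 0.04 for genes with other sites alone. Against the last group the difference was −3.32, −3.36 and −3.32 in the 3 GMP libraries (−3.33 ± 0.02), −3.16 ± 0.10 in preNeu and −2.53 ± 0.04 in matNeu cells, so the order was the same in all 9 libraries. At least 1 TPM was reached in GMPs by 43.5 ± 0.74% of genes with unmarked sites alone, 45.2 ± 0.13% of genes without a site and 70.4 ± 0.21% of genes with other sites alone. In matNeu cells these shares were 35.7, 38.9 and 65.4%. H3K4me2 was present at the promoter at some stage in 63.7% of genes with unmarked sites alone, against 57.3% of genes without a site and 85.8% of genes with other sites alone. The choice of sites left out H3K4me2, which marks active and poised promoters and enhancers. The level of these genes beside genes with other CHD4 sites is thus not independent of that choice. The same holds for the comparison by class of site below. Bulk RNA cannot tell fewer expressing cells from less RNA per cell.

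**Figure D4:**
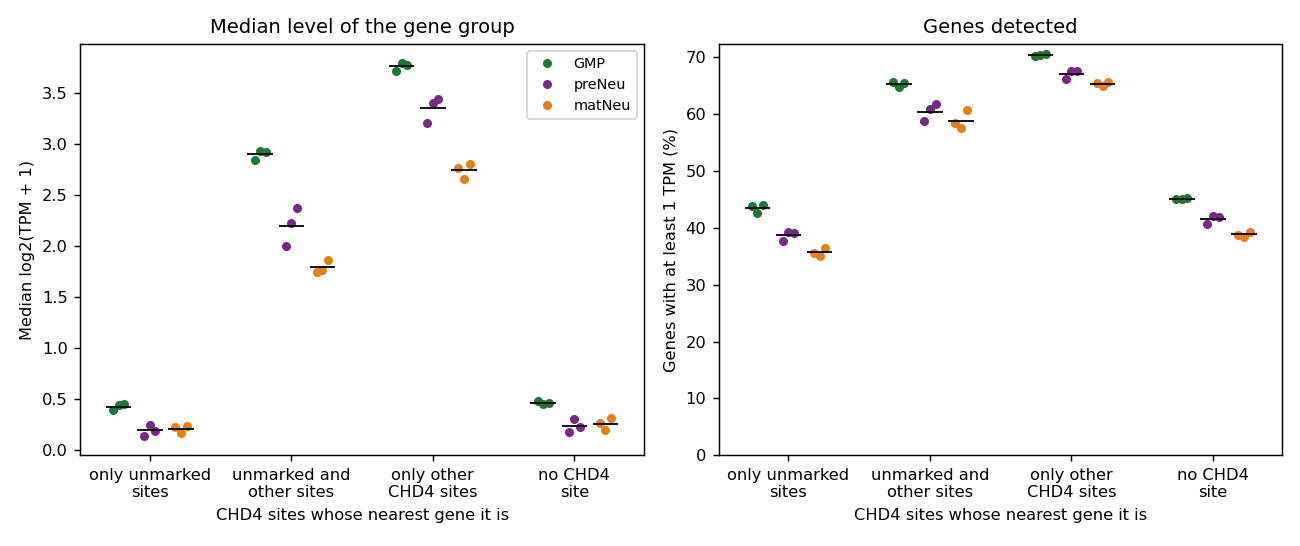
Median log2(TPM + 1) over the protein-coding genes of each group (left) and share of them with at least 1 TPM in percent (right) in each RNA-seq library; points are libraries (3 per cell type) and lines their means. Genes with unmarked sites alone lie beside genes without a CHD4 site, at 0.43 and 0.46 in GMPs, and genes with other sites alone lie at 3.76.

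Genes with exactly 1 CHD4 site in all were compared by the class of that site. The median log2(TPM + 1) in GMPs was 0.60 ± 0.02 for the 807 genes whose only site was unmarked, 2.99 ± 0.11 for the 581 with a later-marked site and 3.998 ± 0.015 for the 716 with a GMP-marked site. It was 0.60 ± 0.03 for the 234 with a kept site and 0.17 ± 0.10 for the 41 with a stronger lost site, so genes with an unmarked site lay below those with a marked weaker lost site but not below these. These genes lay at a median of 17.2 kb from an unmarked site, 11.8 kb from a later-marked site and 4.18 kb from a GMP-marked site. Of the 221 genes with an unmarked site in their promoter, 43.9% (37.5 to 50.5%) reached 1 TPM in GMPs and 46.6% in matNeu cells, against 74.1% and 76.4% of the 301 genes with a later-marked promoter site. Of 4538 unmarked sites in introns, which lay in 2138 host genes, 70.8% (69.4 to 72.1%) lay in a gene with at least 1 TPM in GMPs, and 57.9% in one with at least 1 TPM in matNeu cells, while later-marked sites were at 82.3% and 79.3%. These are shares of sites, in which a long gene counts many times, and cannot be set beside the shares of genes above.

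Expression changes over the 3 stages were tested with limma over 13061 genes, and a filter of at least 1 TPM in 3 libraries left 493 of the 1095 genes with unmarked sites alone. A gene passed that filter if it was expressed in any one cell type. Between GMP and preNeu cells, 44 of the 493 were higher in preNeu cells (8.92%, against 14.7% of all genes tested) and 246 were lower (49.9%, against 44.3%). Between GMP and matNeu cells, 76 were higher (15.4%, against 22.8%) and 311 lower (63.1%, against 54.1%). Between preNeu and matNeu cells, 85 were higher in matNeu cells (17.2%, against 22.9%) and 228 lower (46.2%, against 39.8%). Genes without a CHD4 site had similar shares, with 11.2% higher and 51.0% lower in preNeu cells and 16.4% higher and 63.0% lower in matNeu cells than in GMPs. The median log2 change of the genes with unmarked sites alone was −0.75, −1.34 and −0.56 in the 3 comparisons, beside −0.52, −0.92 and −0.32 over all genes tested. Since most genes fell on the TPM scale, the split depends on scaling. After centring on the median change, 104 were higher and 158 lower in preNeu cells than in GMPs, 151 and 219 in matNeu cells than in GMPs, and 126 and 180 in matNeu than in preNeu cells. As shares these were 21.1% higher and 32.0% lower (27.0 and 26.3% of all genes tested), 30.6 and 44.4% (39.0 and 37.7%), and 25.6 and 36.5% (32.3 and 31.3%).

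The 10 genes with the most unmarked sites all had CHD4 sites of other classes as well, and an H3K4me2 peak at the promoter at all 3 stages. Lpp and Pde4d had 26 each, Zeb2 25, Bach2 and Mef2c 22, Cited2 21, Ext1 and Myc 20, and Irs2 and Tet2 18. Myc, the growth regulator, had its 20 unmarked sites downstream of its TSS, 3.87 to 837 kb away with a median of 405 kb, and also 13 kept and 3 later-marked sites. Its level was 386, 462 and 438 TPM in GMPs, 17.2, 26.3 and 31.4 TPM in preNeu and 0.0890, 0.468 and 0.349 TPM in matNeu cells. The 3 stages did not overlap, and Myc fell by 8.37 ± 0.23 (SE) on the log2 scale from GMP to matNeu cells (limma, adjusted p = 3.65e-10). Zeb2, a zinc finger repressor of monocyte and dendritic cell development, had all 25 of its sites upstream, 103 to 1417 kb from its TSS. Zeb2 stood at 160, 142 and 134 TPM in GMPs, 4.59, 6.78 and 7.41 TPM in preNeu and 35.2, 25.03 and 36.1 TPM in matNeu cells. It was thus lowest in preNeu cells, with a log2 change of −4.35 ± 0.21 from GMP to preNeu and of 2.19 ± 0.21 from preNeu to matNeu cells (limma, adjusted p = 8.80e-08 and 4.44e-06).

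Pde4d, which encodes a cAMP phosphodiesterase, was at 68.5, 67.7 and 72.9 TPM in GMPs, 63.3, 76.9 and 56.8 TPM in preNeu and 2.07, 2.15 and 2.05 TPM in matNeu cells. GMP and preNeu cells overlapped, and the fall of 4.52 on the log2 scale came at the matNeu stage (limma, adjusted p = 1.97e-09). Mef2c, a transcription factor of lymphoid and monocyte differentiation, was at 95.3, 107 and 97.0 TPM in GMPs and between 9.57 and 25.9 TPM in the 6 later libraries, with log2 changes of −2.96 and −2.71 (limma, adjusted p = 2.01e-05 and 1.22e-05). Ext1, an enzyme of heparan sulfate synthesis, was at 3.54 to 8.63 TPM in GMPs and at most 0.843 TPM later. Cited2, a coactivator of CBP and p300 required for blood stem cells, had all 21 sites upstream and rose at the preNeu stage, to 39.3 to 40.8 TPM from 5.06 to 17.9 TPM in GMPs (log2 change 2.06 ± 0.41, limma, adjusted p = 0.00145). Lpp, a protein of focal adhesions, and Irs2, an adaptor of insulin signalling, were low throughout and rose from GMP to matNeu cells by 1.36 ± 0.29 and 1.68 ± 0.31 on the log2 scale (limma, adjusted p = 0.0013 and 4.80e-04). Tet2, which oxidises 5-methylcytosine, was at 23.8 to 29.9 TPM in GMPs, 7.12, 18.6 and 18.6 TPM in preNeu and 31.2 to 40.6 TPM in matNeu cells. Its change from GMP to preNeu cells was −0.93 (limma, adjusted p = 0.0255), beside a median of −0.52 over all genes tested. From GMP to matNeu cells its change was 0.42 (limma, adjusted p = 0.241). This last change was 1.40 and passed limma's test after median scaling (adjusted p = 0.001005). Bach2, a repressor in lymphocytes and progenitors, was low, at 0.975 to 4.14 TPM over the 9 libraries. Its change from GMP to matNeu cells was −0.19 (limma, adjusted p = 0.557) and had the opposite sign after either rescaling. It was then called a rise (limma, adjusted p = 0.0255 with median and 0.00755 with quantile scaling).

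**Figure D5:**
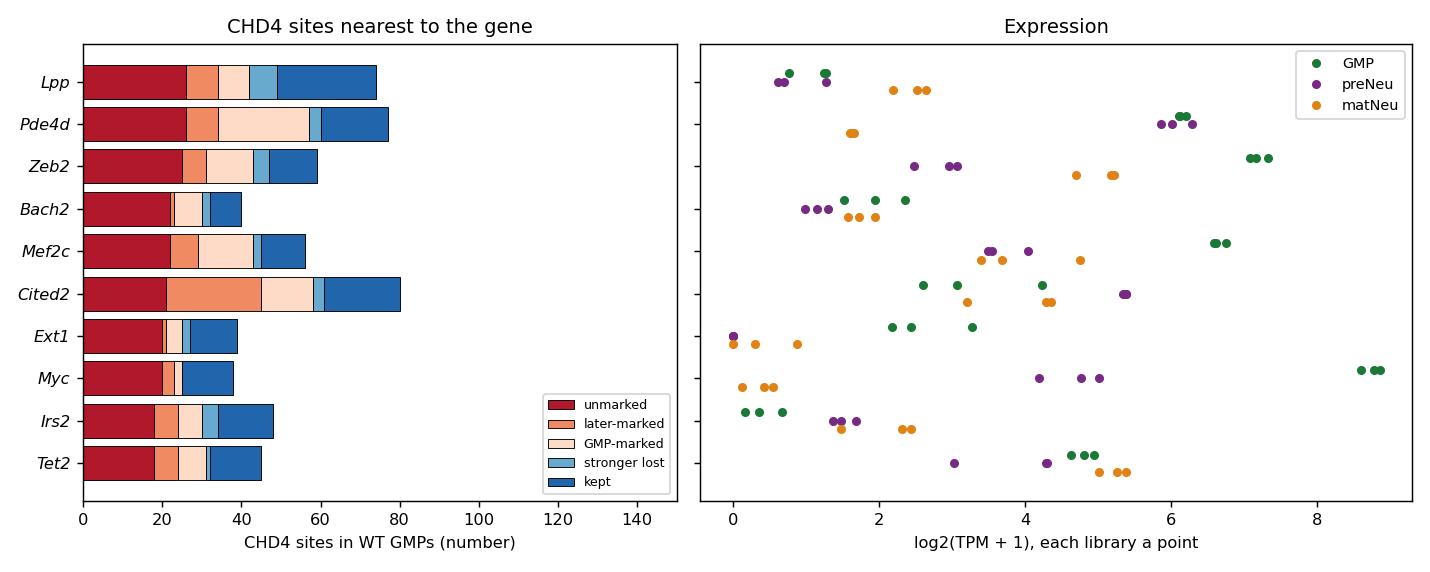
Number of CHD4 sites by class (left) and log2(TPM + 1) in each RNA-seq library (right, 1 point per library and 3 libraries per cell type) of the 10 genes with the most unmarked sites. Myc goes from 386 to 462 TPM in GMPs to at most 0.468 TPM in matNeu cells, and Zeb2 is lowest in preNeu cells.

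Unmarked sites within 50 kb of a TSS also lay near genes with the largest changes of neutrophil maturation, picked here by the size of their change. The 6 largest rises from GMP to matNeu cells near such a site were led by Il1r2, the decoy receptor of interleukin 1 (log2 change 10.10 ± 0.47). Next came Lilr4b (9.75 ± 0.14), Mmp8, the neutrophil collagenase (9.57 ± 0.21), Sirpb1a (8.72 ± 0.34), Cd101 (8.62 ± 0.18) and the chemokine Ccl6 (8.59 ± 0.14). Il1r2 was at 0 to 4.80 TPM in GMPs and at 2474 to 2774 TPM in matNeu cells, with 3 unmarked sites, the nearest 3.996 kb away, and 9 later-marked ones. Sirpb1a, listed at 0 in the 3 GMP libraries and at 389 to 478 TPM in matNeu cells, had 5 unmarked sites upstream, the nearest 8.59 kb away. Lilr4b and Sirpb1a belong to families of near-identical copies, so that their values are uncertain. The 6 largest falls were those of Mpo (−12.82 ± 0.32), Ctsg (−10.76 ± 0.40), both proteins of primary granules, Myc, the coagulation factor subunit F13a1 (−7.88 ± 0.32), Gatm, of creatine synthesis (−7.41 ± 0.18), and the progenitor antigen Cd34 (−7.34 ± 0.25). Cd34 had 3 unmarked sites 2.28 to 4.02 kb upstream, beside 5 GMP-marked and 4 kept sites, and went from 425 to 498 TPM in GMPs to 1.22 to 3.27 TPM in preNeu cells. All 12 changes passed limma's test at an adjusted p of at most 1.06e-08.

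Beside the printed sites, expression followed no single direction. Cd9, a tetraspanin, was at 51.4 to 74.9 TPM in GMPs and 1203 to 1371 TPM in matNeu cells (log2 change 4.32 ± 0.14, limma, adjusted p = 9.74e-10). Cybb, the catalytic subunit of the phagocyte NADPH oxidase, rose by 4.62 ± 0.18 at the preNeu stage, and Inhba, a subunit of activin, by 7.32 ± 0.28, from at most 0.783 TPM to 185 to 236 TPM, before it was at 1.75 to 3.62 TPM in matNeu cells (limma, adjusted p = 1.45e-08 for Cybb and 1.79e-08 for Inhba). Cacybp, of protein degradation, and Ptcd2, a mitochondrial RNA-binding protein, fell by 3.95 ± 0.14 and 4.16 ± 0.24 from GMP to matNeu cells (limma, adjusted p = 1.39e-09 and 4.76e-08). Rnf169, a ubiquitin ligase of the DNA damage response, was at 6.64 to 16.5 TPM over the 9 libraries (0.51 ± 0.25 from GMP to matNeu cells, limma, adjusted p = 0.0828). With median and quantile scaling its change was 1.48 and 1.83 and passed limma's test (adjusted p = 1.60e-04 and 3.21e-05). Lhx8 was listed at 0 in all 9 libraries, and Myom1 and Hivep2 were too low to be tested, at up to 0.359 and 2.17 TPM.

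Among 14 lists of genes by function or cell type, 84 of 243 genes had an unmarked site nearest to them, beside 4105 of all 21938 protein-coding genes (18.7%), and 27.7% of all CHD4 sites were unmarked. The first share is not particular to unmarked sites, since many listed genes had CHD4 sites of any class. This held for 18 of 25 myeloid transcription factors and 21 of 22 neutrophil surface and chemotaxis genes. It was 5 of 14 secondary and tertiary granule genes and 6 of 20 cell cycle genes. Of all 21938 protein-coding genes, 14618 had no CHD4 site. The lists are described with no test. In matNeu cells 22.8% of all genes tested were higher than in GMPs and 54.1% were lower, and the lists had directions of their own. Of 25 myeloid transcription factors, 13 had one, with 70 unmarked of 338 CHD4 sites, and 9 of these 13 were higher and 4 lower in matNeu cells than in GMPs (median log2 change 1.70, beside −0.92 over all genes tested), as were 19 and 4 of the whole list. Id2, an inhibitor of E proteins, had 11 unmarked sites and was at 7.25 to 11.3 TPM in GMPs, 386 to 415 TPM in preNeu and 96.7 to 121 TPM in matNeu cells. Klf6 had 7 and went from 23.8 to 31.8 TPM up to 704 to 820 TPM in matNeu cells. Of 16 monocyte and macrophage genes, 11 had unmarked sites (59 of 179 sites), of which 6 were lower and 1 higher in matNeu cells (median −1.12), beside 7 lower and 3 higher of the whole list, so that the 6 of 11 is close to the share of all genes. Klf4, a transcription factor of monocytes, led with 16 and was at 4.67 to 6.64 TPM in GMPs and at most 1.09 TPM in the 6 later libraries. Of 19 stem and progenitor genes, 10 had them (46 of 211 sites), and 8 of the 9 tested were lower in matNeu cells (median −3.38), beside 16 of 17 tested in the whole list. They included Angpt1, the TIE2 ligand, with 14 unmarked sites (14.9 to 21.0 TPM in GMPs, at most 1.55 TPM later), and Runx1, with 8 (62.3 to 69.1 TPM in GMPs, 17.2 to 23.0 TPM in matNeu cells).

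Unmarked sites were nearest to 2 of 8 primary granule genes (2 of 18 sites), to 2 of 14 secondary and tertiary granule genes (2 of 30 sites) and to 8 of 22 neutrophil surface and chemotaxis genes (17 of 188 sites). Of the last, 7 were tested, and 6 were higher and none was lower in matNeu cells (median 5.59), beside 20 higher of 21 tested in the whole list. Tlr2, the receptor of bacterial lipoproteins, had 4 unmarked sites and was at 14.8 to 18.9 TPM in GMPs, 5.32 to 9.23 TPM in preNeu and 270 to 343 TPM in matNeu cells. At lymphoid genes unmarked sites numbered 35 of 77 CHD4 sites at 6 of 15 B-cell genes, 22 of them at Bach2, 17 of 45 at 8 of 21 T- and NK-cell genes, and 30 of 82 at 9 of 13 genes of dendritic cells and MHC class II. Many of these genes were low: Il7r, the interleukin 7 receptor, with 6 unmarked sites, was at 0 to 0.171 TPM in GMPs, and Themis and Ncr1 were at most 0.793 and 1.17 TPM in all 9 libraries. In the remaining lists 2 of 20 erythroid genes, 4 of 15 eosinophil, basophil and mast cell genes, 3 of 20 cell cycle genes and 4 of 20 long genes of the nervous system had unmarked sites. Lrrtm4, a synaptic adhesion protein, had 7 and no other CHD4 site, and stayed at or below 0.0890 TPM. Of 15 genes of NuRD and its partners, 2 had any: Kdm1a with 2 downstream of its TSS and Rbbp7 with 1, which was its only CHD4 site. Rbbp7 went from 629 to 714 TPM in GMPs to 9.12 to 13.5 TPM in matNeu cells. After centring on the median change, in matNeu against GMP cells the monocyte list stood at 5 higher and 5 lower and the NuRD list at 1 lower. In the other lists whose direction from GMP to matNeu cells is given here, the majority direction did not change.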

How the data were processed

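CHD4, H3K4me2 and ATAC peak lists and an RNA-seq table of mouse bone marrow cells were used. The authors deposited, for each peak, a fold enrichment (a linear ratio to background), a −log10 q and a score, the last as their peak caller wrote it and not used here. Their processing notes name BWA 0.7.17, MACS2 2.1.0, Trimmomatic 0.36 and kallisto 0.44.0, and the paper gives GRCm38. Read depth is unknown. For RNA-seq the authors deposited a single table of TPM. The labels describe counting with HTSeq and testing with DESeq, but TPM keeps no depth, so a count test was not used. The lists for GFI1 and H3K4me3 carry chromosome names of another genome and were not used here, so sites were not divided by GFI1 occupation. No column of the table was left out (0 columns).

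Overlap meant at least 1 bp. Promoters and nearest genes used protein-coding genes of the GENCODE M21 basic annotation. Sequences were read with pysam 0.24.0 and lists with pandas 2.3.3 in Python 3.11.15. Shares carry 95% Wilson intervals and differences Newcombe intervals. No p-value was computed across sites. The expression model was fitted in limma 3.58.1 (R 4.3.3) to log2(TPM + 1) values of the 9 libraries together, keeping a gene when 3 or more of them reached 1 TPM. Its design held the cell type and no other covariate, the prior variance followed mean expression, and p-values were adjusted after Benjamini and Hochberg with 0.05 as the threshold. The fit was tested on simulated data. Nothing says whether the 3 libraries of a cell type came from separate animals, so p-values measure the spread between these libraries. Changes are on the log2(TPM + 1) scale, which understates those of low genes.

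The sites, gene lists and rules were chosen with earlier results of these data known. Named genes were the 10 with the most unmarked sites, the 6 largest rises and falls in matNeu against GMP cells among genes with an unmarked site within 50 kb, the genes nearest to the printed sites, and up to 3 genes per list. The alternatives were other limits on fold enrichment, q, overlap, distance, promoter and filters, a pseudocount of 0.1, 2 other scalings, a replicate block and leaving out each library. Replicate numbers did not pair the libraries. Deviations from the mean of each cell type correlated at −0.0394 to 0.123 between same-numbered libraries of different cell types.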

Additional observations from a re-analysis of the deposited data

How the results depend on the processing

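Of 143 alternative values for the main results, 126 kept their direction and stayed within the limits set for a change. The difference in median log2(TPM + 1) in GMPs between genes with unmarked sites alone and genes with other sites alone (−3.33) was −3.21 with a fold enrichment limit of 10, −3.39 with a limit of 20, −3.29 with CHD4 peaks of −log10 q of at least 5, −3.31 with no Gfi1-/- peak within 1 kb and also with nearest genes within 50 kb (−3.309 in both), −3.27 with equal numbers of H3K4me2 peaks, −4.83 with a pseudocount of 0.1, and −3.34 to −3.32 without each GMP library. The promoter share (2.36%) was 1.59% when H3K4me2 within 1 kb counted as overlap and 1.62% for promoters of 1 kb on either side. The ATAC share (0.131%) was 0.0202% for ATAC peaks of −log10 q of at least 5. With median and quantile scaling, genes higher in preNeu than GMP cells numbered 104 and 105 (44 unscaled), and lower 158 and 156 (246). Genes higher in matNeu than GMP cells numbered 151 and 154 (76), and genes higher in matNeu than preNeu cells 131 with quantile scaling (85). Leaving out each library gave 37 to 46 higher and 218 to 248 lower in preNeu than GMP cells, 68 to 76 and 301 to 314 in matNeu than GMP cells, and 70 to 87 and 209 to 227 in matNeu than preNeu cells. With the replicate block these counts were 46 and 244, 79 and 311, and 82 and 221, and the block is not a pairing by design.

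Of 816 values for 51 named genes, 790 kept their sign and call, and 10 changed sign, whether called or not. Among those that kept their sign, 5 lost the call and 11 gained it. In matNeu against GMP cells, the log2 change of Bach2 was 0.79 with median and 1.02 with quantile scaling and −0.40 to 0.021 without each library (the highest without GMP library 3), Mrc1 0.81 and 0.82, and Siglecf 0.88 and 0.83, and −0.34 to 0.11 without each library (above 0 without GMP library 3 and without matNeu library 2). With median and quantile scaling these changes of sign were called rises in limma's test. The adjusted p was 0.0255 and 0.00755 for Bach2, 0.0243 and 0.0308 for Mrc1, and 0.0104 and 0.0169 for Siglecf. Kdm1a was at 0.38 with quantile scaling and was not called (limma, adjusted p = 0.271). Calls of unchanged sign were gained with both scalings for Rnf169 (0.51 to 1.48 and 1.83), Tet2 (0.42 to 1.40 and 1.48), Cited2 (0.65 to 1.62 and 1.93) and Maf. They were gained for Tet2 also without preNeu library 1 and for Cited2 without GMP library 3 or matNeu library 1. Calls were lost for Cd200r3 with both scalings and for Kdm1a with median scaling and without GMP library 1 or matNeu library 2. Apart from the effect of the scalings on the median of all genes, the cause was not tested. The unknown depth of the peak lists limits every statement that a peak was absent.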

Other observations

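Beside the genes already described, unmarked sites lay near genes of blood lineages other than the neutrophil. In preNeu against GMP cells, 3 of the 11 monocyte and macrophage genes with such a site were higher and 6 lower, 2 and 2 of the 6 tested genes of dendritic cells and MHC class II, and 1 and 2 of the 4 of eosinophils, basophils and mast cells, beside 14.7% higher and 44.3% lower over all genes tested (limma). These splits depend on scaling. After centring on the median change they were 4 and 4, 4 and 2, and 1 and 1. Over all genes tested, 27.0% were then higher and 26.3% lower. The 3 genes named next are among those that rose in at least 1 later stage. Mrc1, the macrophage mannose receptor, had 12 unmarked sites and was at 1.48 to 1.99 TPM in GMPs, 5.99 to 12.7 TPM in preNeu and 0.965 to 2.20 TPM in matNeu cells (log2 change from GMP to preNeu cells 1.91 ± 0.32, limma, adjusted p = 4.27e-04). Itgax, the integrin CD11c, had 4, the nearest 0.643 kb from its TSS, was listed at 0 in the 3 GMP libraries and was at 27.7 to 49.0 TPM in matNeu cells. Ccr3, the eotaxin receptor, had 6 and was at 0 to 0.66 TPM in GMPs and 2.03 to 7.93 TPM in the 6 later libraries, with log2 changes of 2.09 ± 0.37 and 1.69 ± 0.37 (limma, adjusted p = 6.89e-04 and 0.00167).

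Among genes with unmarked sites alone, those with more of them were longer and lower in GMPs. The median log2(TPM + 1) was 0.60 for the 807 genes with 1 site, 0.30 for the 183 with 2, 0.0054 for the 88 with 3 to 4 and 0 for the 16 with 5 or more, and the median gene length was 28.7, 35.1, 51.4 and 68.7 kb. Length and number of sites cannot be told apart here.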
